A study of Mus musculus with 4 samples.

Results

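Chemokines and their receptors were examined in the RNA of splenic CD4+ T cells from wild-type (WT) mice and from *Satb1* conditional knockout (cKO) mice. Members were all gene symbols of the count tables whose names begin with the chemokine stems Ccl, Cxcl, Xcl and Cx3cl or the receptor stems Ccr, Cxcr, Xcr, Cx3cr and Ackr, followed by a digit. The stems matched 65 of 55367 gene symbols, and 64 of them are described here, 22 receptors and 42 ligands. The libraries were 4 in number, 2 labelled WT and 2 labelled *Satb1* conditional knockout, all from C57BL/6 spleen. In the knockout, *Satb1* F/F alleles are recombined by Cre under *ThPOK* control, a driver that switches on as thymocytes become CD4 cells, and regulatory T (Treg) cells are thus targeted like other CD4+ T cells. Whether the WT mice carried Cre or the floxed allele, and the age and sex of the mice of each library, are not given in the labels. The labels give no treatment, and the cells were not split into Treg and conventional cells. The study describes the libraries as biological replicates, and the p-values below measure only the spread between these libraries.

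Chemokines are small secreted proteins that bind receptors coupled to inhibitory G proteins and direct the movement of white blood cells. Naive CD4+ T cells recirculate through lymphoid organs under CCR7, the receptor for CCL19 and CCL21, and CXCR4, the receptor for CXCL12, holds cells in bone marrow and other CXCL12-rich niches. Activation and memory add receptors for inflamed tissue, gut, skin or B cell follicles, and some memory T cells make ligands of their own, CCL5 foremost. Atypical receptors of the Ackr group bind chemokines without G protein signalling and clear them.

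The total gene count ranged from 4495902 to 6555699 per library, and 3 counts, taken as the floor of detection, were worth 0.457 to 0.669 CPM (counts per 1000000 gene counts of the library, after TMM scaling). *Satb1* itself had 5677 and 4390 counts in WT cells and 4958 and 3986 in cKO cells, so its gene-level count did not separate the labels, and WT and cKO below mean the libraries labelled so. *Xist* had 5447 and 4235 counts in WT cells against 9 and 6 in cKO cells, and *Ddx3y* of the Y chromosome 0 and 0 against 525 and 597, so that the sex of the mice and the genotype cannot be told apart. The 9 CD4 T cell markers summed to between 6231 and 6356 CPM in WT cells and between 6363 and 7091 CPM in cKO cells. B cell markers summed to 41.4 and 55.6 CPM in WT cells, to 237 CPM in cKO 1 and to 83.4 CPM in cKO 2, so cKO 1 stood apart from the other libraries in this respect. Macrophage and monocyte markers likewise summed to 49.7 and 61.6 CPM in WT cells against 159.5 CPM in cKO 1 and 76.2 CPM in cKO 2. In the edgeR test described below, *Pax5* and *Cd74* rose of 6 tested B cell markers. Of 11 tested macrophage and monocyte markers *Lyz2*, *Cybb* and *Vcam1* rose. DESeq2 did not call *Cd74* or *Cybb*, and limma called only *Cybb* of them. *Pax5* had 5 and 4 counts in WT cells and passed the count filter through the cKO libraries.

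Of the 22 receptors, 11 had enough counts to be tested, and edgeR's quasi-likelihood test called 3 of these (adjusted p under 0.05). *Cxcr4* rose, and *Ccr7* and *Ccr9* fell in cKO cells. Over all 12403 genes tested the share called was 4.30%, with 2.35% higher and 1.95% lower. The same share was 4.38% with RLE scaling, 4.39% with total count scaling, 4.03% with a minimum of 1 CPM in 2 libraries, 3.43% in DESeq2, 3.89% in limma and 4.95% after thinning to the smallest library, and each of these called 3 receptors. It was 5.72% without the low-count filter, where 6 receptors were called, and 9.39% with the replicate number as a block, where 5 were called. Leaving out a library gave 3.62% without WT 1, 1.39% without WT 2, 11.7% without cKO 1 and 13.8% without cKO 2, with 3, 2, 3 and 8 receptors called. Of the 42 ligands only *Ccl5* and *Ccl25* were tested, and *Ccl5* fell. The CPM of the genotypes did not overlap for 7 of the 11 receptors, 3 higher and 4 lower, where the share over all genes tested was 50.3% (24.8% higher and 25.5% lower). The median log2 fold change of the 11 receptors was -0.40, beside a median of -0.0015 over all genes tested. The members were picked out with earlier results of these libraries known, so these counts describe the family.

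**Figure D1:**
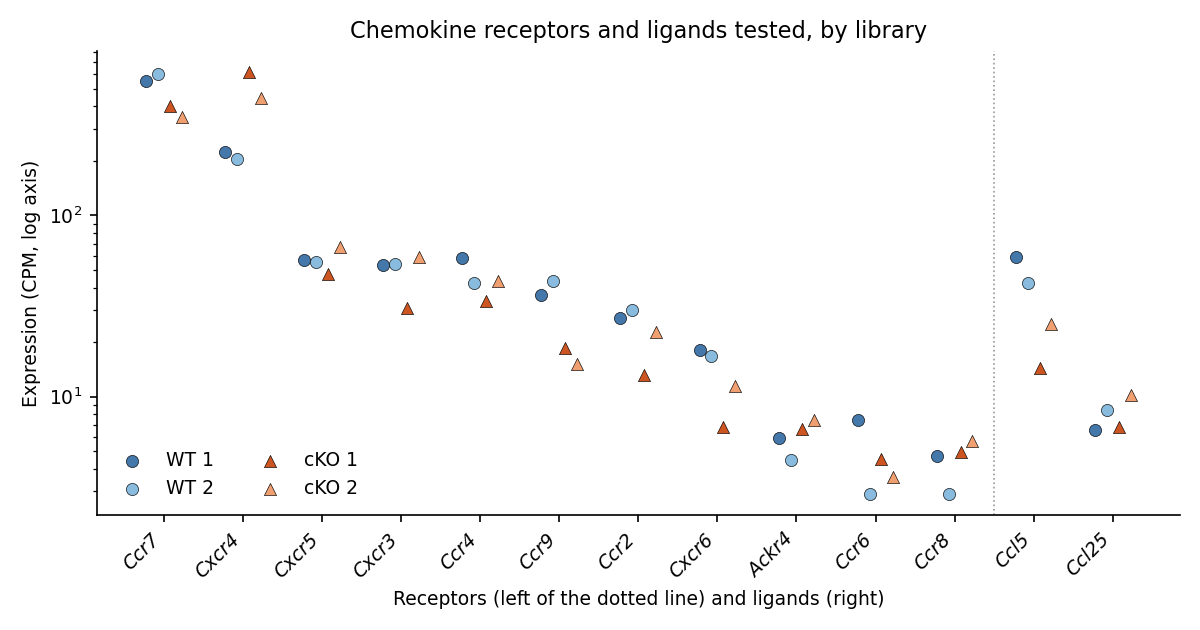
Expression in CPM (log axis) of the 11 tested receptors and 2 tested ligands in each library, with WT libraries as circles and cKO libraries as triangles. Both cKO libraries lie above both WT libraries for *Cxcr4*, *Ccr8* and *Ackr4* and below them for *Ccr7*, *Ccr9*, *Ccr2*, *Cxcr6* and *Ccl5*.

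**Figure D2:**
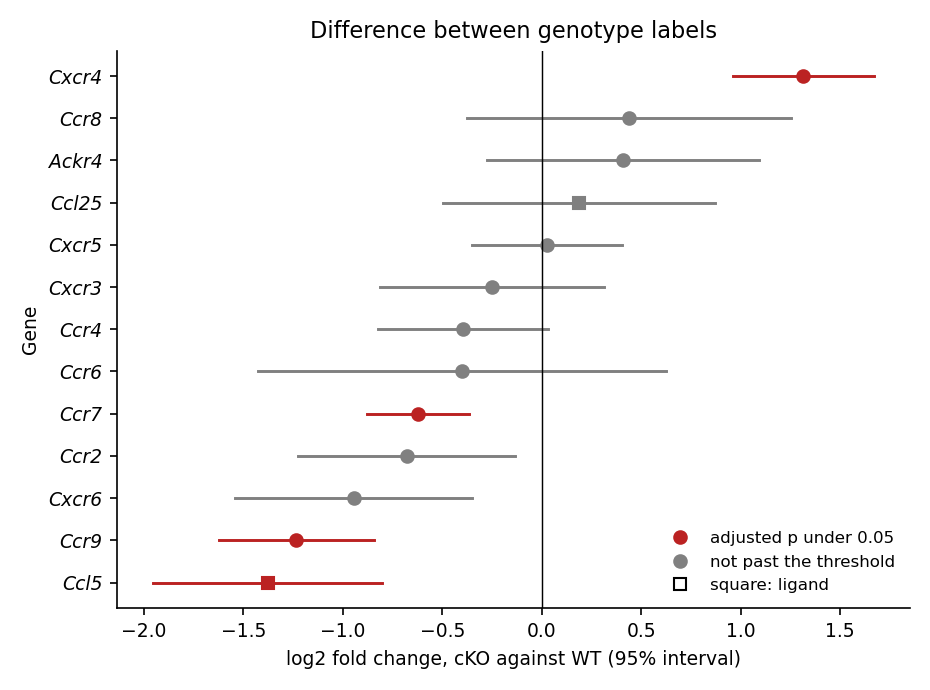
The log2 fold change of cKO against WT for each tested member, with its 95% interval from the edgeR fit. Receptors are circles, ligands are squares, and the 4 members past the threshold of adjusted p under 0.05 are in red. *Cxcr4*, at 1.31, is the only one of these above 0.

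Receptors of lymphoid organ homing came first in abundance. *Ccr7* (chromosome 11, 99144196 to 99155077, minus strand of GRCm38) encodes the receptor that brings naive T cells into lymph nodes and the splenic T zone. It was read at 551 and 601 CPM in WT cells and at 401 and 347 CPM in cKO cells. The genotypes did not overlap, and the mean was 576 ± 35.8 CPM in WT and 374 ± 37.9 CPM in cKO (SD, n = 2 each). The log2 fold change was -0.62 (SE 0.11), which is 1.54-fold lower with a 95% interval of 1.29 to 1.84, and the edgeR adjusted p was 0.0199. Leaving out WT 2 ended the call, with a log2 fold change of -0.56 and an edgeR adjusted p of 0.262. In bulk RNA, fewer cells of a type and less RNA per cell cannot be told apart.

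Most marker genes of naive T cells had log2 fold changes below 0, and few passed the test. Of 9 naive T cell marker genes, with *Ccr7* and the targeted gene *Satb1* among them, 2 fell, 1 rose and 6 did not pass the edgeR test. Of the 9 log2 fold changes 7 were below 0, with a median of -0.16. Those of *Satb1* (-0.047) and *S1pr1* (-0.0055) were barely below 0. *Dapl1* fell with *Ccr7*, with a log2 fold change of -2.39 and an edgeR adjusted p of 4.76e-05. *Igfbp4* (log2 fold change -0.71, edgeR adjusted p = 0.107) and *Lef1*, a transcription factor of naive T cells (-0.32, edgeR adjusted p = 0.315), were lower in both cKO libraries than in both WT libraries and did not pass. *Il7r*, the receptor chain for the survival cytokine IL-7, rose (log2 fold change 1.04, edgeR adjusted p = 0.0257), a call that DESeq2 did not make (adjusted p = 0.0772). The exit receptor gene *S1pr1* was at 771 and 768 CPM on average in WT and cKO. The summed level of the list was 7702 and 8306 CPM in WT cells and 8066 and 6254 CPM in cKO cells, which overlap.

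*Cxcr4* (chromosome 1, 128588199 to 128592293, minus strand) was the receptor that rose. It had 1461 and 917 counts in WT cells and 3268 and 2092 in cKO cells, which is 223 and 205 CPM against 620.0 and 443 CPM. Both cKO libraries were above both WT libraries, and cKO 1 was the higher of the pair. The mean was 214 ± 12.7 CPM in WT and 531 ± 125 CPM in cKO (SD, n = 2 each). The log2 fold change was 1.31 (SE 0.16), 2.49-fold higher with a 95% interval of 1.95 to 3.18, and the edgeR adjusted p was 0.00326. Without any single library the log2 fold change stayed between 1.05 and 1.54, and the highest edgeR adjusted p was 0.0267.

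Heat shock and immediate early genes were read beside it. Of 8 tested heat shock genes 6 rose, *Hsph1* among them (log2 fold change 1.74, edgeR adjusted p = 0.000106), and the 9 listed genes, 1 of them not tested, summed to 1137 to 1320 CPM in WT cells and 2083 to 2258 CPM in cKO cells. Without WT 2, *Hsph1* and *Dnaja1* were still called and the other 4 were not. Of 10 immediate early genes, which respond within minutes to stimulation or handling, 0 were called by edgeR, DESeq2 or limma, and 1 was higher and 1 lower at an unadjusted p under 0.05. The part of stress or handling in the level of *Cxcr4* was not tested.

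The promoter of *Cxcr4*, the receptor that rose, is shown from 250 bases before to 50 bases after its start, taken from RefSeq at chr1:128592250-128592549 of GRCm38.p6, minus strand, read 5′ to 3′. Capitals mark matches on either strand to the letters TATAAA (the TATA box) and GGGCGG (the GC box, here as its reverse complement).
Cxcr4: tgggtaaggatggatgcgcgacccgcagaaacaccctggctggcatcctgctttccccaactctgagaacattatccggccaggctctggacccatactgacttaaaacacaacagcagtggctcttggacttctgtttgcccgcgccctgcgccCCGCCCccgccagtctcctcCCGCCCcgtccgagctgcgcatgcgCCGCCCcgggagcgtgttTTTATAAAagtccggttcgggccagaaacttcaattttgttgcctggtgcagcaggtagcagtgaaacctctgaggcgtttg
The window held 3 GC boxes, beginning 95, 75 and 50 bases before the start, and a TATA box at 30 bases before it whose letters overlap a match on the other strand. GC boxes occur in 35.7% and TATA boxes in 13.6% of the 32851 RefSeq promoters of this length. The letters searched for forkhead (GTAAACA), T-box (AGGTGTGA), TCF/LEF (CTTTGAA), STAT (TTCNNNGAA), NF-kB (GGG, any 5 bases and CC), E-box (CACGTG) and AP-1 (TGANTCA) motifs were not in this window. These letters occur in 3.65% (forkhead), 1.28% (T-box), 5.14% (TCF/LEF), 8.30% (STAT), 50.8% (NF-kB), 7.15% (E-box) and 7.81% (AP-1) of all promoters of this length. RefSeq promoter windows were matched for 10 of the 13 tested members, and not for *Ccr7*, *Ccl5* and *Cxcr5*.

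The opposite changes of *Ccr7* and *Cxcr4* turned their order around. Per kilobase of exon, *Ccr7* stood at 291 ± 18.1 CPM per kb (SD, n = 2) and *Cxcr4* at 118 ± 7.04 CPM per kb in WT cells. In the cKO libraries *Cxcr4* led with 294 ± 69.3 CPM per kb, and *Ccr7* followed with 189 ± 19.1 CPM per kb. The ratio of *Cxcr4* to *Ccr7* counts within a library needs no scaling for depth, and it was 0.404 and 0.340 in WT cells but 1.55 and 1.27 in cKO cells. *Ccr7* made up 52.5% (Wilson 95% interval 51.3 to 53.7) and 56.4% (55.0 to 57.8) of the counts of the 22 receptors in WT cells. In the cKO libraries its share was 33.6% (32.4 to 34.7) and 33.6% (32.3 to 34.9). *Cxcr4* took 21.2% (20.3 to 22.2) and 19.2% (18.1 to 20.3) in WT cells and 51.9% (50.7 to 53.1) and 42.8% (41.4 to 44.2) in cKO cells. The intervals cover counting error only. The 22 receptors together gave 1049 and 1066 CPM in WT cells and 1195 and 1034 CPM in cKO cells, so their sum overlapped between genotypes while its make-up did not.

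**Figure D3:**
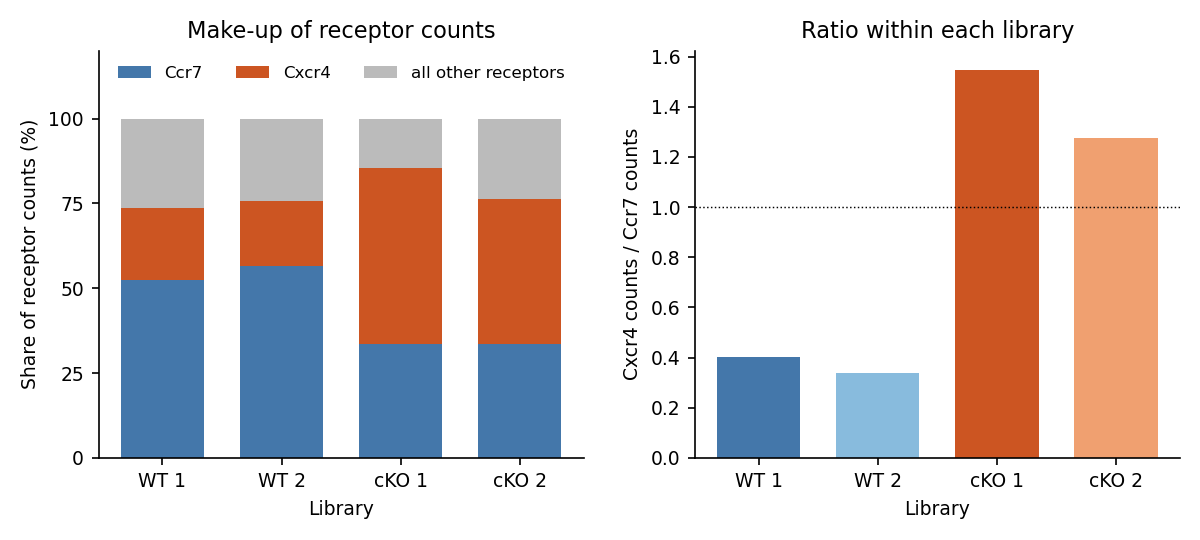
Left, the share (%) of the counts of the 22 receptors taken by *Ccr7*, *Cxcr4* and the other 20 receptors in each library. Right, the ratio of *Cxcr4* to *Ccr7* counts within each library, with a dotted line at 1. The ratio is 0.404 and 0.340 in WT cells and 1.55 and 1.27 in cKO cells.

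A group of receptor genes for effector and tissue-homing cells lies together on chromosome 9. Of the 22 receptors 13 are on this chromosome, and 7 of them, *Ccr9*, *Cxcr6*, *Xcr1*, *Ccr1*, *Ccr1l1*, *Ccr3* and *Ccr2*, sit between 123678439 and 124113557 of GRCm38, within 435 kb. The 3 tested genes of this cluster were all below both WT libraries in both cKO libraries, and 1 of them, *Ccr9*, was called. Of all genes tested 25.5% were lower without overlap. Summed over the 7 genes, expression was 85.5 and 92.8 CPM in WT cells and 40.4 and 54.0 CPM in cKO cells. Counts of neighbouring genes are no independent samples, and the cluster was singled out after its values were seen.

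*Ccr9* (123678439 to 123784330, plus strand) encodes the receptor for CCL25, known for homing to the small intestine. It was at 36.6 and 43.7 CPM in WT cells and at 18.6 and 15.2 CPM in cKO cells, with no overlap. The mean was 40.1 ± 5.07 CPM in WT and 16.9 ± 2.37 CPM in cKO (SD, n = 2 each). The log2 fold change was -1.23 (SE 0.17, 2.35-fold lower, 95% interval 1.80 to 3.08), with an edgeR adjusted p of 0.00626. Without any single library it stayed between -1.39 and -1.10. In GENCODE the gene shares 269 exonic bases with the lincRNA *Gm17200* on its own strand and 1932 with a transcript on the opposite strand, which the counting may not have separated. *Gm17200* was at 10.8 and 9.30 CPM on average, with overlapping libraries.

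*Cxcr6* (123806475 to 123811760), the receptor for CXCL16 on tissue-resident and effector T cells, had 119 and 75 counts in WT cells and 36 and 54 in cKO cells. Its log2 fold change was -0.95 (SE 0.26, edgeR adjusted p = 0.0886). *Ccr2* (124101950 to 124113557), the CCL2 receptor of monocytes and effector T cells, had 179 and 135 counts against 69 and 108. For it the log2 fold change was -0.68 (SE 0.24, edgeR adjusted p = 0.169). Neither passed the threshold, though both were lower in each cKO library than in each WT library. Both passed it when cKO 2 was left out, with edgeR adjusted p of 0.000303 for *Cxcr6* and 8.56e-05 for *Ccr2*. Without cKO 1 they moved the other way, to log2 fold changes of -0.62 (edgeR adjusted p = 0.112) and -0.32 (edgeR adjusted p = 0.284), and without WT 1 or WT 2 neither passed. With the replicate number as a block their adjusted p were 0.0203 and 0.0224, and without the low-count filter 0.00170 and 0.00836. Of 16 tested marker genes of activated or memory T cells, *S100a6*, *Lgals1*, *Lgals3* and *Tbx21* fell and *Cd69* and *Bcl6* rose in edgeR, while DESeq2 called only *S100a6*, *Lgals1* and *Cd69* of these, without WT 1, 3 of the 6 were called, and without WT 2 only *S100a6*. Of the log2 fold changes of these 16 genes, 12 were above 0 and 4 below, with a median of 0.29. All 19 listed genes, tested or not, summed to 1753 and 1578 CPM in WT cells and 1719 and 2228 CPM in cKO cells. The part of activated or memory T cells in these receptor levels was not tested.

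The 4 other genes of the cluster were not tested. *Ccr3*, an eosinophil receptor, had 13, 6, 9 and 13 counts in WT 1, WT 2, cKO 1 and cKO 2, and *Xcr1*, of cross-presenting dendritic cells, had 10, 3, 1 and 5. *Ccr1* reached at most 3 counts, and *Ccr1l1* had 0. Of the other genes within or beside the cluster, *Fyco1*, whose body contains *Cxcr6* on the opposite strand, was at 81.6 and 82.3 CPM on average in WT and cKO. *Lztfl1*, inside the long *Ccr9* gene model, had a log2 fold change of -0.48 with an edgeR adjusted p of 0.343.

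**Figure D4:**
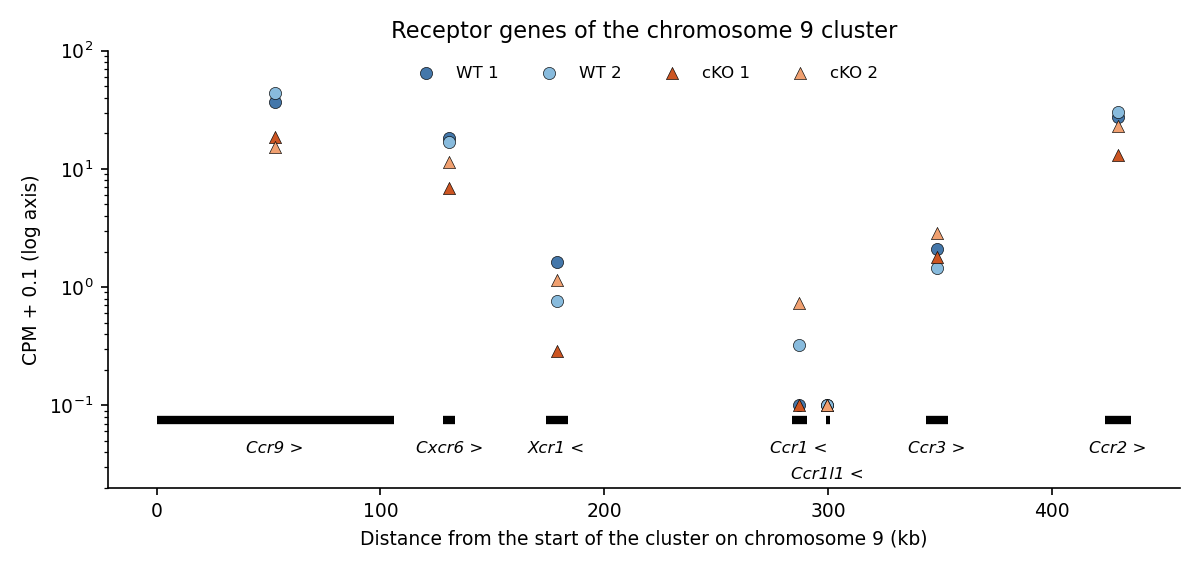
CPM plus 0.1 (log axis) of the 7 receptor genes of the chromosome 9 cluster in each library, by distance in kb from the start of the cluster, with gene bodies as bars and arrows for strand. The cKO libraries (triangles) lie below the WT libraries (circles) for *Ccr9*, *Cxcr6* and *Ccr2*.

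Promoters of 3 of these neighbours were matched in RefSeq and are shown to compare the 3 tested genes that lie together, of which *Ccr9* was called. They are on the plus strand of GRCm38.p6 at chr9:123766961-123767260 (*Ccr9*), chr9:123806227-123806526 (*Cxcr6*) and chr9:124101933-124102232 (*Ccr2*), with capitals where GGG, any 5 bases and CC, the loose NF-kB letters, occur on either strand.
Ccr9: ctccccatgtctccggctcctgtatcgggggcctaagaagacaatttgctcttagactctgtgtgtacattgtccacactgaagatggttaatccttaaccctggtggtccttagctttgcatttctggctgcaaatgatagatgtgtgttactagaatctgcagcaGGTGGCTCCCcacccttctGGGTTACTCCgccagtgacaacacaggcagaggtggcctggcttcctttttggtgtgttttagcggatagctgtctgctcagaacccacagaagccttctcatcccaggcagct
Cxcr6: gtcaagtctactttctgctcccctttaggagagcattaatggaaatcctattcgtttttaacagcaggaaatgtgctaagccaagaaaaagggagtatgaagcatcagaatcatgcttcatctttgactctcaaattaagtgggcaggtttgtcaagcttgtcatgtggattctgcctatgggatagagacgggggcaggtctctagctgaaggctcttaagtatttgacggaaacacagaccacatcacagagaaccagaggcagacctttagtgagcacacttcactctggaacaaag
Ccr2: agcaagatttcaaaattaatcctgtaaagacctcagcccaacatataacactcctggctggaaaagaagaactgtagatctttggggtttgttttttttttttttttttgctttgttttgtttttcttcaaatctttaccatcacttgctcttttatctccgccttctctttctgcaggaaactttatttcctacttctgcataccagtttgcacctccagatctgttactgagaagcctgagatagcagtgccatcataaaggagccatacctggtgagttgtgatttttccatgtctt
The *Ccr9* window held 2 matches, at 83 and 64 bases before the start, letters that 50.8% of all promoters hold. None of the 9 letter strings searched was in the *Cxcr6* or *Ccr2* window. GC content was 51.3% in *Ccr9*, 44.3% in *Cxcr6* and 38.0% in *Ccr2*, beside a median of 52.7% over all promoters and 59.3% in the *Cxcr4* window.

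Receptors of helper and follicular T cells did not pass the threshold. *Cxcr5* (chromosome 9, 44511787 to 44561877), which takes follicular helper cells to B cell follicles, was at 57.1 and 55.1 CPM in WT cells and 47.2 and 67.3 CPM in cKO cells. For *Cxcr5* the cKO values bracketed the WT values, and the log2 fold change of 0.02 had a 95% interval of -0.35 to 0.40 (edgeR adjusted p = 0.959). *Cxcr3* (chromosome X, 101731535 to 101734269), the receptor of type 1 helper cells for CXCL9 and CXCL10, was at 53.0 and 53.8 CPM against 30.9 and 59.3 CPM. Its log2 fold change was -0.25 with a 95% interval of -0.81 to 0.31 (edgeR adjusted p = 0.643). The gene is X-linked, in libraries that differ by sex-linked genes. The cKO libraries lay on either side of the WT libraries, and without cKO 1 the value turned to 0.15, while without cKO 2 it was -0.78 with an edgeR adjusted p of 0.000278. *Ccr4* (chromosome 9, 114490316 to 114504916), of type 2 helper and Treg cells, was at 58.3 and 42.2 CPM against 33.6 and 43.6 CPM. Its log2 fold change was -0.40 with a 95% interval of -0.82 to 0.03 (edgeR adjusted p = 0.301). Without cKO 2 it was -0.60 with an edgeR adjusted p of 0.0118, without WT 1 it shrank to -0.12 with an adjusted p of 0.926 and without cKO 1 to -0.23 with an adjusted p of 0.442.

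*Ccr8* (chromosome 9, 120092114 to 120094906), a receptor of Treg and type 2 helper cells, had 31 and 13 counts in WT cells and 26 and 27 in cKO cells. Its log2 fold change was 0.44 with a 95% interval of -0.38 to 1.25 (edgeR adjusted p = 0.564), and it ran from 0.17 without WT 2 to 0.87 without WT 1. *Foxp3*, the gene that defines Treg cells, was at 131 ± 14.9 CPM in WT and 474 ± 99.7 CPM in cKO (SD, n = 2 each), a 3.62-fold rise. The paper reports that loss of SATB1 also turns on *Foxp3* in conventional CD4+ T cells, which do not become suppressive. Of the 14 tested Treg genes 5 rose (*Foxp3*, *Ctla4*, *Tnfrsf18*, *Tnfrsf4* and *Nrp1*) and 1, *Itgae*, fell. DESeq2 called 5 of these 6, without *Nrp1* (adjusted p = 0.0607). Without WT 1, 3 of them were called, and without WT 2 only *Foxp3*. The Treg list summed to 839 to 957 CPM in WT cells and 1438 to 1566 CPM in cKO cells. Without *Foxp3* the other 13 genes summed to 719 to 816 CPM and 1021 to 1035 CPM, a sum added after the values were seen. *Ccr6* (chromosome 17, 8236043 to 8257141), the CCL20 receptor of type 17 helper cells, varied more within WT, with 49 and 13 counts, than between genotypes, with 24 and 17 counts in cKO cells. Its log2 fold change of -0.40 had a 95% interval of -1.43 to 0.63 (edgeR adjusted p = 0.694), and without WT 1 it turned to 0.50.

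*Ackr4* was the atypical receptor with enough counts to test (chromosome 9, 104084157 to 104126933). It had 39 and 20 counts in WT cells and 35 and 35 in cKO cells, a log2 fold change of 0.41 with a 95% interval of -0.27 to 1.09 (edgeR adjusted p = 0.514), and it ran from 0.24 without WT 2 to 0.66 without WT 1. It shares 479 exonic bases with *Acad11* on the opposite strand, so its counts are uncertain. *Ackr1*, *Ackr2* and *Ackr3* had at most 1 count in any library.

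Per kilobase of exon, the tested receptors below *Ccr7* and *Cxcr4* in WT cells were ordered *Cxcr3*, *Cxcr5*, *Ccr4*, *Cxcr6*, *Ccr2*, *Ccr9*, *Ccr8*, *Ccr6* and *Ackr4*. They ran from 30.8 CPM per kb for *Cxcr3* to 0.967 for *Ackr4*. Libraries overlapped between *Cxcr5* and *Ccr4*, and between each pair of neighbours from *Ccr2* down to *Ccr6*, so that these orders were not separated. In the cKO libraries *Ccr9* stood below *Ccr8*, *Ccr2* and *Ccr6*, at 1.65 ± 0.231 CPM per kb (SD, n = 2), overlapping with *Ccr6*. Lengths are those of all annotated exons, and a long unused exon lowers a gene's place.

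Of the 11 receptors not tested, 6 were over the floor of 3 counts in some library. *Cxcr2*, the main chemokine receptor of neutrophils, had 0 and 0 counts in WT cells and 17 and 4 in cKO cells, at least 3.62-fold higher on average when the WT libraries are set at 3 counts each. Set against the same floor, cKO 1 alone was at least 5.73-fold and cKO 2 alone at least 1.503-fold higher. Neutrophil markers were also higher in cKO cells. Of 10 listed genes 4 were tested and 3 rose in edgeR, *S100a9*, *Ltf* and *Ngp* (DESeq2 did not call *Ngp*, adjusted p = 0.457). The 4 tested genes had at most 7 counts in a WT library and passed the count filter through the cKO libraries. A rise among them was thus partly set by the filter. *Ly6g*, *Retnlg* and *Elane* of the list did not exceed 3 counts in any library. The neutrophil list summed to 0 and 3.79 CPM in WT cells, 41.4 CPM in cKO 1 and 25.4 CPM in cKO 2, and the part of such cells in other members was not tested. *Ccr10*, a skin-homing receptor, had 10, 12, 1 and 6 counts in WT 1, WT 2, cKO 1 and cKO 2, and *Cx3cr1* had 6, 10, 4 and 5. *Cxcr1* had 4, 4, 6 and 0 counts. *Cxcr2* was called when the low-count filter was dropped. The fit without cKO 2 kept *Cxcr2* only through its 17 counts in cKO 1, so a call there rests on 1 library. For the other untested receptors no difference was detectable at this depth in any fit that kept them.

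Among the ligands, *Ccl5* stood alone in abundance. *Ccl5* (chromosome 11, 83525778 to 83530518, minus strand) encodes a chemokine that memory T cells, CD8+ T cells and natural killer (NK) cells make. It had 388 and 190 counts in WT cells and 76 and 119 in cKO cells, or 59.1 and 42.4 CPM against 14.4 and 25.2 CPM. The genotypes did not overlap, and the mean was 50.7 ± 11.8 CPM in WT and 19.8 ± 7.61 CPM in cKO (SD, n = 2 each). The log2 fold change was -1.38 (SE 0.25), 2.60-fold lower with a 95% interval of 1.74 to 3.88, and the edgeR adjusted p was 0.0207. Without any single library the log2 fold change lay between -1.83 and -1.03.

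Some markers of NK and CD8+ T cells, though not all, were lower in the same libraries. Of 7 listed NK cell genes 5 were tested and 3 fell, namely *Gzma* (granzyme A), *Eomes* and *Klrd1*, with log2 fold changes of -4.30, -1.38 and -2.79. *Gzma* had 108 and 90 counts in WT cells and 7 and 2 in cKO cells (edgeR adjusted p = 0.000783). The NK list summed to 65.4 to 72.8 CPM in WT cells and 18.2 to 19.5 CPM in cKO cells, although the defining NK receptor *Ncr1* had at most 3 counts in any library. *Cd8b1* fell (log2 fold change -0.91, edgeR adjusted p = 0.0201), while *Cd8a* had 35 and 29 counts against 36 and 20. Without WT 2 the edgeR adjusted p of *Cd8b1* was 0.156, and the 3 NK cell genes were still called. The part of such cells in the fall of *Ccl5* was not tested.

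**Figure D5:**
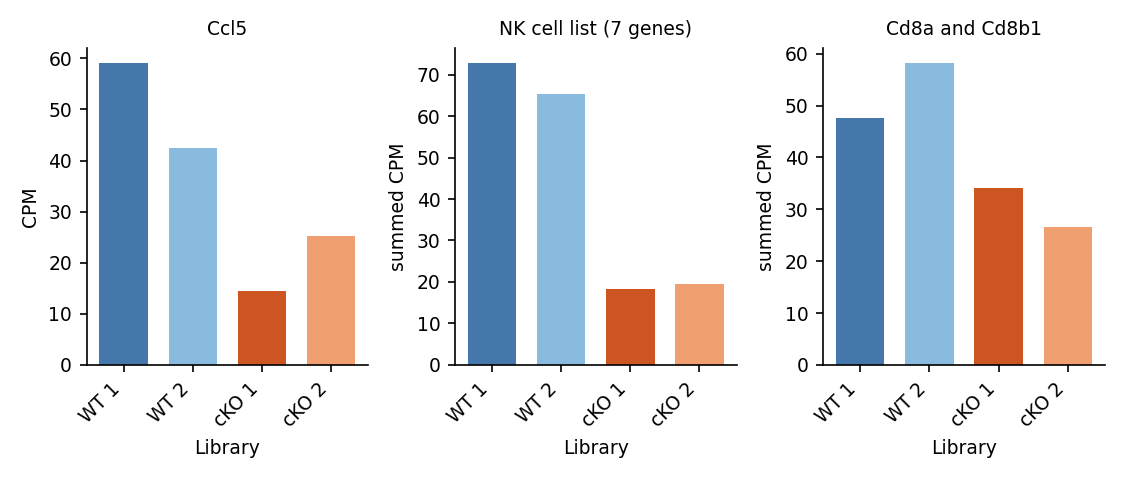
CPM of *Ccl5* and summed CPM of the 7 NK cell genes and of *Cd8a* with *Cd8b1*, in each library. All of them are lower in both cKO libraries than in both WT libraries, the NK cell list at 18.2 and 19.5 CPM against 72.8 and 65.4 CPM.

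*Ccl25*, the thymic and intestinal ligand of CCR9, had 43 and 38 counts in WT cells and 36 and 48 in cKO cells. Its log2 fold change was 0.19 with a 95% interval of -0.50 to 0.87 (edgeR adjusted p = 0.799). The gene model (chromosome 8, 4325210 to 4360020) shares 204 exonic bases with *Elavl1* on the opposite strand, which had 761 and 500 counts in WT cells, so the counts of *Ccl25* are uncertain.

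The other 40 ligands were near or at the floor. In 21 of them no library had a count, 11 reached at most 3 counts, and 8 exceeded 3 counts somewhere. Together these 40 genes had 30 and 23 counts in WT cells and 55 and 38 in cKO cells. *Ccl22*, which dendritic and B cells make, had 17 counts in cKO 1 and 1 or 2 in each other library. The B cell, macrophage and monocyte, and neutrophil sums were also highest in cKO 1. The dendritic cell markers had their lowest sum there, 40.4 CPM. The part of such cells in *Ccl22* was not tested. *Cxcl10*, an interferon-induced ligand of CXCR3, had 2, 5, 7 and 11 counts in WT 1, WT 2, cKO 1 and cKO 2. *Ccl3* and *Ccl4*, which activated T cells secrete, had 4, 1, 2 and 1 counts and 4, 0, 2 and 1 counts in the same order, and *Xcl1*, the ligand of XCR1, had 6, 3, 2 and 5. *Ccl27a* had 3, 5, 5 and 6 counts and *Cxcl16*, the ligand of CXCR6, 4, 3, 5 and 6. *Ccl6*, a myeloid chemokine, had 0 and 0 counts in WT cells and 7 and 1 in cKO cells, so only cKO 1 was over the floor of 3 counts.

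For most tested receptors the ligand was barely read in the same libraries. For 10 tested receptors, 16 ligands were paired with them by known binding, and 12 of these ligands did not exceed 3 counts in any library. *Ccl19* and *Ccl21a*, the ligands of *Ccr7*, had 0 counts throughout, and *Cxcl12*, the ligand of *Cxcr4*, had 2 counts in cKO 1 and 0 elsewhere. *Ccr9* with *Ccl25* was the pair in which both genes were tested, and there the receptor gene fell and the ligand gene did not pass the test. Of 9 stromal and endothelial marker genes, *Pdgfra*, *Col3a1*, *Kdr* and *Pdpn* were at 0 in all libraries. *Pecam1*, which T cells also express, had 1626 to 2072 counts, *Cdh5* had 9, 7, 3 and 0 counts in WT 1, WT 2, cKO 1 and cKO 2, and *Col1a1*, *Pdgfrb* and *Col1a2* had at most 5.

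Genes that carry the signal from chemokine receptors to cell movement mostly did not pass the test. Of 55 tested genes of this list 3 rose and 0 fell in edgeR, with 3 and 0 also in DESeq2 and limma, a share of 5.45% beside 4.30% of all genes, and at an unadjusted edgeR p under 0.05, 9 were higher and 3 lower. Their median log2 fold change was 0.04. Without the low-count filter 5 genes of the list were called higher and 3 lower, where 5.72% of all genes were called. With the replicate number as a block these were 5 and 1, where 9.39% of all genes were called. The 3 that rose in the main fit were *Rgs1* and *Rgs2*, which shorten G protein signals, and *Plcb3*, a phospholipase that G proteins activate. *Rgs1* went from 136 and 57 counts in WT cells to 261 and 239 in cKO cells, a log2 fold change of 1.55 (SE 0.20, edgeR adjusted p = 0.00511). *Rgs2* had 117 and 69 counts against 201 and 153, with 1.08 (SE 0.17, edgeR adjusted p = 0.0104), and *Plcb3* 72 and 46 against 138 and 105, with 1.18 (SE 0.19, edgeR adjusted p = 0.0126). Leaving out WT 2 raised the adjusted p of *Rgs2* to 0.0791 and that of *Plcb3* to 0.0867. The most abundant genes of the list, *Rac2*, *Tln1*, *Cfl1* and *Dock2*, which drive the actin skeleton and adhesion, had log2 fold changes of 0.0046, 0.07, -0.27 and -0.11, with edgeR adjusted p of 0.306 and above, and with overlapping libraries for *Rac2* and *Tln1*.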

How the data were processed

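RNA of splenic CD4+ T cells was sequenced in 50-base reads in 4 libraries. The authors aligned reads to mm10 with HISAT2 (2.1.0) and counted them with HTSeq (0.11.1 in the submitters' processing notes); the deposited values are raw counts of reads per gene symbol. The annotation and strand setting are not given in the sources used here. Reads outside annotated features, 59.4% to 64.5% of uniquely aligned reads, were left out. Counts were analysed in R 4.3.3 with edgeR 4.0.16 (filterByExpr, TMM factors 1.00, 0.997, 0.981 and 1.02, quasi-likelihood F test, two-sided, no covariate, Benjamini-Hochberg over 12403 genes, threshold 0.05); the procedure was tested on simulated data. CPM uses TMM-scaled total gene counts. SE is the absolute log2 fold change over the square root of F, and intervals use the t distribution. With 2 libraries against 2, an exact permutation test of a single gene cannot go below 0.333. Positions and exon lengths come from GENCODE M21 (GRCm38, the mm10 assembly), which matched 62 of the 64 members described. A further member and some marker genes stayed in the fit and are not reported here. Every tested member is named, as are untested members over 3 counts in a library. Called signalling genes and the 4 most abundant others are named too, with some marker genes of lists that move with a member. Members and lists were chosen with earlier results of these data known; the heat shock and immediate early lists and the TATA and GC boxes were added after values or sequences were seen. The 12 alternatives were RLE or total count scaling, other filters, DESeq2 1.42.0, limma 3.58.1 (voom), a replicate block, thinning and leaving out each library. Python 3.11.15 and matplotlib 3.10.9 made the plots.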

Additional observations from a re-analysis of the deposited data

How the results depend on the processing

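The 3 receptor calls and the *Ccl5* call were made under each of the 12 alternatives, except *Ccr7* without WT 2. Without the low-count filter 6 receptors, 8 signalling genes and 1367 genes in all were called; with the replicate block 5 receptors, 6 signalling genes and 1165 genes in all. The cause was not tested. Leaving out a library gave 2 to 8 receptors, 1 to 2 ligands, 1 to 11 signalling genes and 180 to 1790 genes in all, in fits that assume the lone library varies like the other group. Without cKO 2, *Ccr2*, *Ccr4*, *Cxcr2*, *Cxcr3*, *Cxcr6* and *Ccl22* were added to the calls. Of these, *Cxcr2* and *Ccl22* were kept in that fit only through their 17 counts each in cKO 1. Of genes that were not called, *Cxcr5* turned to -0.0038 under limma, and with 1 library left out its value spanned -0.25 to 0.26, that of *Cxcr3* -0.78 to 0.15 (above 0 without cKO 1), of *Ccr6* -0.87 to 0.50 (above 0 without WT 1) and of *Ccl25* -0.11 to 0.46 (below 0 without cKO 2). Replicate numbers are not stated to pair mice, and the deviations of libraries that share a number had a correlation of 0.0642 over genes; the block added *Ccr2* and *Cxcr6* to the receptor calls, 5 in all. The intervals of *Ccr6*, *Ccr8* and *Ackr4* hold both 0 and a 2-fold change, so smaller differences in them were not detectable at this depth. Those of *Cxcr6* (-1.54 to -0.35) and *Ccr2* (-1.23 to -0.13), also not called, hold a 2-fold change and not 0. The intervals are not adjusted for the number of genes tested.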
